A study of Mus musculus with 295 samples.

Results

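The genes described here encode subunits and assembly factors of the mitochondrial respiratory chain, the ATP synthase and a pair of citrate cycle enzymes, measured in mouse adipose tissue. They were taken by symbol from the probe annotation of the array: every Nduf, Uqcr, Cox4 to Cox8 and Atp5 gene, the 4 genes for the subunits of succinate dehydrogenase, Cyc1, Cs and Mdh2, without Cox7a1 and Cox8b. This gave 40 genes with 49 probes. Probes measured on 90% or more of the arrays were kept, which left 35 genes with 41 probes, of 11454 genes and 22894 probes in all. Of the 35 genes, 17 belong to complex I by symbol, 9 to complex IV, 7 to the ATP synthase and 2 to the citrate cycle. No kept probe carried the symbol of a subunit of complex II or complex III, so these complexes are not analysed here.

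Tissue came from 295 F2 mice of both sexes, bred from C57BL/6J and C3H/HeJ parents that were both ApoE null, so every animal lacked ApoE. All received a high fat Western diet between weeks 8 and 24 of age. RNA of each mouse, labelled with Cy3, was hybridised on 1 array against a common pool of all the RNAs labelled with Cy5. The labels name 1 group and give no sex, genotype or fat depot for any mouse, so the design allows relations across mice only. A value is a log2 ratio of mouse over pool: 0 is the average of the cross and 1 is a doubling. The ratio carries no absolute level, so levels of different genes were not set against each other, and the label of the tissue cannot be checked by level.

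Oxidative phosphorylation passes electrons from NADH, through complex I, ubiquinone, complex III, cytochrome c and complex IV, to oxygen, and the proton gradient built on the way drives the ATP synthase. Nearly all subunits are encoded in the nucleus, among them all those described here, and are assembled with a small number of subunits made in the mitochondrion. White fat cells hold few mitochondria, while brown and beige fat cells hold many and run the chain for heat, with the uncoupling protein Ucp1 in place of the ATP synthase as the path of protons. Ndufv1, Ndufs1 and Ndufs8 carry the redox centres of complex I, the Ndufa and Ndufb genes encode accessory subunits, and the Ndufaf genes encode assembly factors.

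Mice fell apart on transcripts that have nothing to do with the chain, and this was taken into account throughout. Eif2s3y, a Y-linked gene, was at -4.16 or below in 142 mice and at -0.10 or above in 153 mice. Of the 153, 48 carried transcripts of the epididymis: their score over 12 marker genes was at least 1.69, against at most 0.64 in the other 247 mice. These sets (Eif2s3y-low, 142 mice; Eif2s3y-high without epididymis transcripts, 105; with epididymis transcripts, 48) were defined from the data, so levels in them are given as descriptions. They entered the fits over all mice as a covariate, unless a fit without it is named. Mouse 12, one of the 48, stood further apart: 1459 probes were at least 1 log2 unit above every other mouse there, against a median of 0 probes per mouse and 95 in the next. Among the genes leading that list, chosen after their values were seen, were Cyct, the cytochrome c of testis, at 5.21 against 1.35 in the next mouse, and Stk31, a germ cell gene, at 5.52 against 1.56.

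The members varied about as much as all probes. A member with several probes stands by its most variable one, a choice not made among all probes. The median SD over mice was 0.30 for the 35 members and 0.29 for all probes, and a range of at least 2-fold over the middle 90% of mice was found for 12 members (34.3%), against 39.2% of all probes. The complexes differed in this spread: 5 of 7 genes of the ATP synthase spanned 2-fold, 4 of 9 of complex IV and 3 of 17 of complex I, with median SDs of 0.35, 0.32 and 0.28. Arrays were not repeated, so technical error is part of each SD. All sizes rest on reading the deposited values as log10.

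The widest members were small subunits and a muscle isoform. Cox6a2, the heart and skeletal muscle isoform of a complex IV subunit, ran from -1.41 to 2.99 with a median of -0.09, and its SD was 0.57 ± 0.04 (SE, n = 295 mice). Its SD was 0.54 without mouse 87, which held the highest value; the next was 2.22. Cox7b, a small subunit of complex IV, ran from -1.15 to 1.25 with a median of -0.12 and an SD of 0.46 ± 0.02 (n = 291). Ndufa1, an accessory subunit of complex I encoded on the X chromosome, ran from -1.48 to 1.19 with a median of -0.07 and an SD of 0.42 ± 0.02 (n = 295). Cox7a2, the form of that complex IV subunit found outside muscle, had an SD of 0.42 ± 0.02 and ran from -1.31 to 1.05 with a median of -0.18. In the ATP synthase, Atp5j2 ran from -1.18 to 1.34 (median -0.14, SD 0.40 ± 0.02, n = 294), Atp5e from -1.05 to 1.60 (median -0.30, SD 0.37 ± 0.02, n = 289) and Atp5k from -1.21 to 1.60 (median -0.17, SD 0.36 ± 0.02, n = 286). Atp5j2 and Atp5k encode small membrane subunits, and Atp5e a small subunit of the catalytic head. Among the redox subunits of complex I, Ndufs1 ran from -0.85 to 1.06 (median 0.04, SD 0.35 ± 0.01), Ndufv1 from -0.64 to 1.14 (median -0.05, SD 0.30 ± 0.01) and Ndufs8 from -0.75 to 0.76 (median 0.04, SD 0.22 ± 0.01). Ndufb7, an accessory subunit of complex I, ran from -0.52 to 0.54, with an SD of 0.19 ± 0.01.

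**Figure D1:**
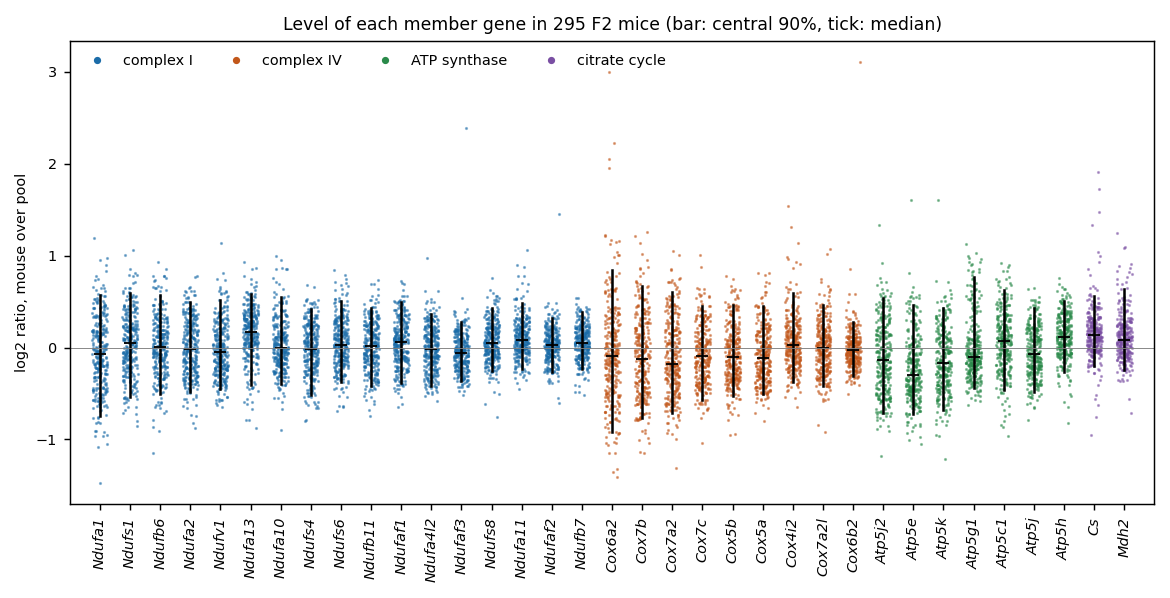
Log2 ratio of mouse over pool (vertical axis) of each of the 35 genes (horizontal axis) in the 295 mice; each point is a mouse, the bar spans the central 90% and the tick is the median. Most points of every gene lie within 1 log2 unit of 0, Cox6a2 is the widest, and Cox6b2 and Ndufaf3 each have a single point above 2, both from mouse 12.

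A few arrays held values far from all others. In mouse 12, Cox6b2, the testis isoform of a complex IV subunit, was at 3.11, against 0.86 in the next mouse. The same array held the highest Ndufaf3 (2.39, next 0.54) and the highest Ndufaf2 (1.45, next 0.49), both assembly factors of complex I. Without that array the SD of Cox6b2 was 0.19 in place of 0.26, and that of Ndufaf3 0.20 in place of 0.24. Mouse 37 held the highest values of Atp5k (1.60, next 0.73), Atp5e (1.60, next 0.81) and Atp5j2 (1.34, next 0.92), and 11 of its members were over 2 SD above the mean while 3 were over 2 SD below. Leaving out both mice gave 3 members higher and 27 lower with the macrophage score, as with all mice. Over all members, 4 mice had 10 or more genes above 2 SD, and mouse 315 had 13 genes below -2 SD.

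Atp5g1, which encodes the membrane ring subunit of the ATP synthase, was split by the epididymis transcripts. It ran from 0.03 to 1.12 with a median of 0.61 in the 48 mice with them. In the Eif2s3y-low mice it ran from -0.58 to 0.49 (median -0.16), and in the other Eif2s3y-high mice from -0.62 to 0.97 (median -0.11). The ranges overlapped, but 1 of the 247 other mice was above the median of the 48. Its SD fell from 0.35 to 0.21 without the 48 arrays, the largest such change among the members. Cox7a2l, a protein that joins complex III and complex IV into supercomplexes, had medians of -0.04, -0.04 and 0.25 in the same order of sets, and 25 of the 247 mice exceeded the median of the 48. Of the 35 members, 24 had their lowest median in the 48 and 5 their highest. The same count was not made over all probes, so it is not shown to be particular to the members. Among the members lowest in the 48, Ndufs1 had medians of 0.23, 0.01 and -0.36 and Atp5j2 of 0.14, -0.29 and -0.51. Cox5a, a matrix-side subunit of complex IV, had 0.08, -0.24 and -0.37. The sets differed in cell markers too. The median adipocyte score (10 genes, mean z) was 0.52, -0.05 and -1.01, the median macrophage score (20 genes) -0.29, 0.60 and -0.02, and the median Ucp1 ratio 0.28, -3.14 and -3.53. Fewer cells of a type and less RNA per cell cannot be told apart in bulk tissue, and the part of these markers in the levels by set was not tested.

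**Figure D2:**
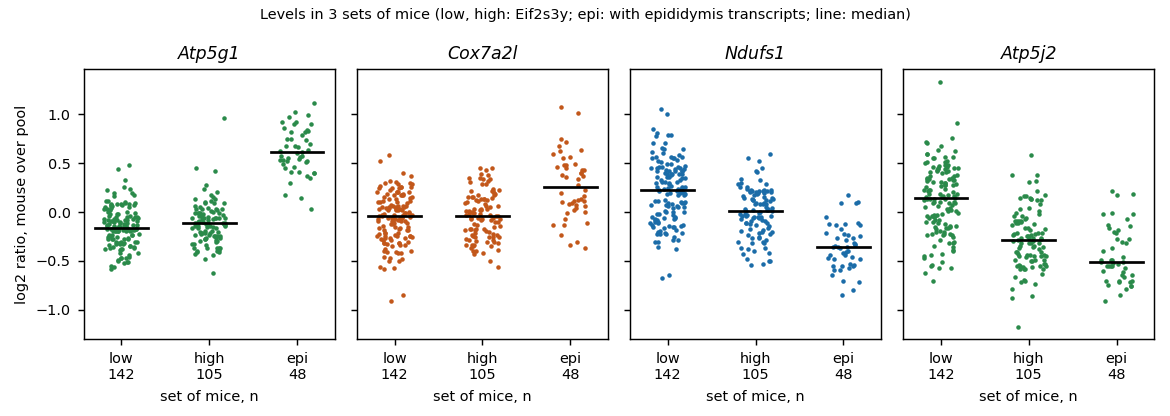
Log2 ratio of mouse over pool (vertical axis) of Atp5g1, Cox7a2l, Ndufs1 and Atp5j2 in 142 Eif2s3y-low mice, in 105 Eif2s3y-high mice that lack epididymis transcripts and in 48 that carry them; points are mice and lines are medians. Atp5g1 and Cox7a2l are highest in the 48 mice, at medians of 0.61 and 0.25, while Ndufs1 and Atp5j2 are lowest there, at -0.36 and -0.51.

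Members varied together across mice, and the boundary between complexes was only part of the pattern. With set means removed, the mean pairwise r over the 595 pairs of members was 0.27, against 0.0036 over all pairs of probes. These r are Pearson correlations over 295 mice, given as descriptions: members share each array and its array-wide shifts, and with array medians removed the mean was 0.27 as well. Within complexes the mean r was 0.31 for complex I, 0.34 for complex IV and 0.32 for the ATP synthase. Within the 48 mice with epididymis transcripts that of complex I was 0.19. Between complexes it was 0.25 for I with IV, 0.32 for I with the ATP synthase and 0.35 for IV with the ATP synthase. Without the isoforms Cox4i2, Cox6a2 and Cox6b2, the other 6 genes of complex IV had a mean r of 0.56. Without the assembly factors and Ndufa4l2, the other 13 of complex I had 0.39. The genes so kept, with the ATP synthase genes, Cs and Mdh2, are called common members below. They are not the catalytic cores, since they include accessory subunits of complex I and Cox7a2l. Each common member's mean r with all of its own complex was set beside that with common members outside it. It was higher for 5 of 6 in complex IV, 8 of 13 in complex I and 3 of 7 in the ATP synthase. The exception in complex IV was Cox7a2l (0.055 against 0.19).

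The pair with the highest r joined different complexes. Atp5j2 and Cox7a2 had an r of 0.92 over all mice, and 0.94, 0.95 and 0.83 within the Eif2s3y-low mice, the other Eif2s3y-high mice and the 48. Atp5j2 and Cox7c, another small subunit of complex IV, had an r of 0.87. Within complex I, Ndufa1 and Ndufa2 reached 0.86 and Ndufb6 and Ndufs6 0.86. Of the 20 closest pairs, 9 joined different complexes, and of the 67 pairs with an r over 0.7, 40 did. Among all 595 pairs 401 do, a larger share, but these include all pairs of Cs or Mdh2 with a complex. Such pairs had a mean r of 0.048 with complex I, 0.060 with complex IV and 0.035 with the ATP synthase. The difference in share was not tested. The lowest pairs both lay within complex I: Ndufa11 with Ndufa13 at -0.59, and Ndufa4l2 with the assembly factor Ndufaf1 at -0.59. Ndufa13, also known as GRIM-19, had an r of -0.16 with the mean of all other members, and Cs of -0.08, while Ndufb11 had 0.86 and Ndufa2 0.85.

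The correlation map showed groups that cut across the complexes. The groups below were drawn from the map after the values were seen, so the r within them is fixed by that choice and supports nothing. A first group of 12 genes held 5 small or peripheral subunits of complex IV (Cox5a, Cox5b, Cox7a2, Cox7b, Cox7c), 3 of the ATP synthase (Atp5j, Atp5j2, Atp5k) and 4 of complex I (Ndufa1, Ndufa2, Ndufb11, Ndufs4), with a mean r of 0.74. A second group of 10 held 8 genes of complex I (Ndufv1, Ndufs1, Ndufs6, Ndufs8, Ndufa10, Ndufb6, Ndufb7, Ndufaf1) and 2 of the ATP synthase (Atp5c1, Atp5h), with a mean r of 0.59. The mean r between the groups was 0.37, with single pairs from 0.003 to 0.75. The redox subunits Ndufs8, Ndufs1 and Ndufv1 had r of 0.68, 0.63 and 0.59 with Atp5c1, the central stalk of the ATP synthase, and of 0.38, 0.21 and 0.36 with Ndufa1 of their own complex. Over the common members the first principal component held 44.5% of the variance and the second 16.5%. The mean of the first group had an r of 0.35 with the mean of 41 cytosolic ribosomal protein genes, and that of the second 0.02; with the mean of 30 mitochondrial ribosomal protein genes the values were 0.60 and 0.85. Both groups had r of 0.07 and 0.22 with the array median.

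**Figure D3:**
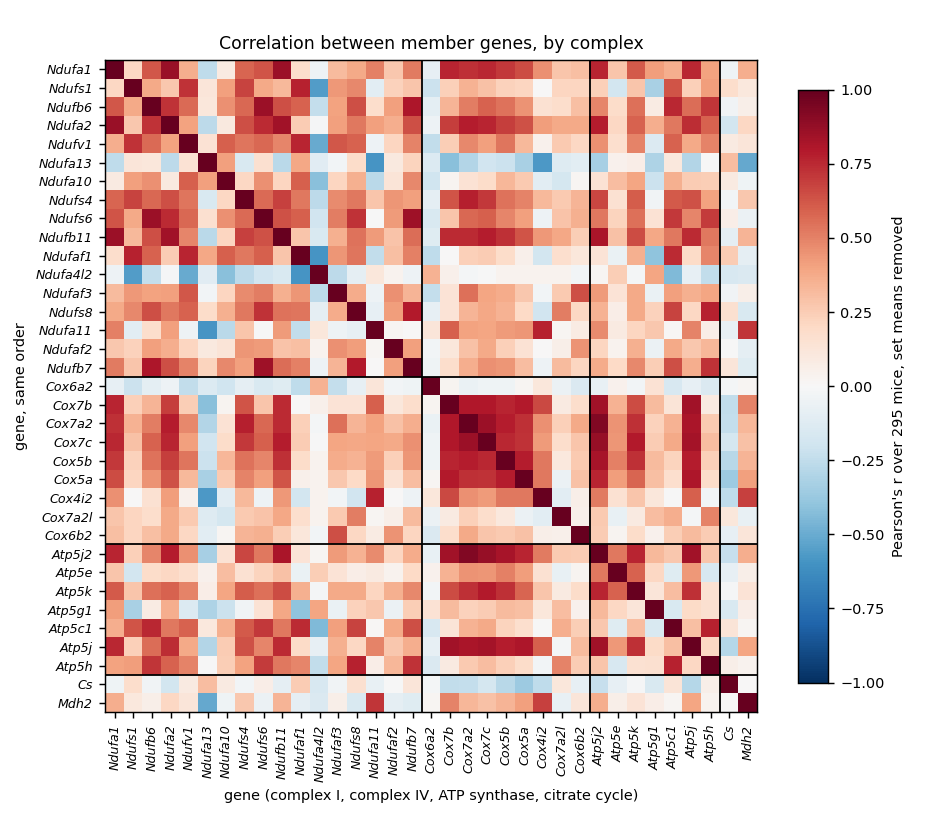
Pearson's r between each pair of the 35 genes over 295 mice after removing set means (colour, from -1 in blue to 1 in red); genes are ordered by complex and, within it, by SD, and black lines divide complex I, complex IV, ATP synthase and citrate cycle. Red blocks extend across the lines, as between Cox7a2 and Atp5j2 (0.92), while Ndufa13, Ndufa4l2, Cox6a2 and Cs are pale or blue in most cells.

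Outside the members, the genes whose levels were most like the members' mean encode other mitochondrial proteins for the most part. They were Mrps21, a mitochondrial ribosomal protein (r 0.84), Mcee, an epimerase of propionate metabolism (0.81), Higd1a, a small inner membrane protein (0.80), Hspe1, the mitochondrial co-chaperonin (0.79), Hint2 (0.76), Hint3 (0.75), Mtch2, an outer membrane protein (0.74), Idh3g, a subunit of isocitrate dehydrogenase (0.74), and the import chaperones Timm10 (0.74) and Timm8b (0.73). Of 11419 other genes 113 had an r over 0.5, with a median of -0.0044 over all of them. Among 30 mitochondrial ribosomal genes 10 did, and the median was 0.36; among 41 cytosolic ribosomal genes 1 did, with a median of 0.17. Of 17 regulators known to act on mitochondrial genes, none had an r over 0.5. Ppargc1a, the coactivator PGC-1 alpha, had 0.27, Nrf1, a transcription factor of nuclear genes for the chain, 0.07, and Pprc1, a coactivator related to PGC-1 alpha, -0.52.

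Upstream sequences of the members were searched for the letters of 4 motifs of factors known to act on nuclear genes of the chain, since many members moved together. RefSeq promoters of GRCm38.p6 were matched for 30 members, and the 250 bases before each start were read on both strands, against 27025 genes. The NRF1 palindrome, whose letters are the capitals of Atp5k and Ndufa11 below, stood in 2 of the 30 (6.67%) and in 0.877% of all genes. The ETS motif CCGGAAG, which the GABP factor binds, stood in 6 (20% of the 30; Atp5e, Atp5h, Atp5j, Ndufaf1, Ndufb6 and Ndufb7) and in 7.83% of all genes. The YY1 motif AAGATGGC stood in 1 (3.33%) and in 1.83% of all genes, and the estrogen-related receptor motif TCAAGGTCA in 0 and in 0.422%. These letters were given no test, and a match is not a binding site. The 120 bases before the start are printed for the genes with the NRF1 motif, for Atp5j, which held both YY1 and ETS letters at this one of its starts, and for Ndufb7, with motif letters in capitals.
Atp5k, chr5:108434400-108434519, strand -: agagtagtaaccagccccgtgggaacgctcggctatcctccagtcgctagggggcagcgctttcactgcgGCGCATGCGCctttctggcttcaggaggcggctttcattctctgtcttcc
Ndufa11, chr17:56717642-56717761, strand +: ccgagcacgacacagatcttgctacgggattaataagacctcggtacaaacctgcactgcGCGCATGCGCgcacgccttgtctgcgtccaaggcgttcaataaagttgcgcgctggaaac
Atp5j, chr16:84834977-84835096, strand -: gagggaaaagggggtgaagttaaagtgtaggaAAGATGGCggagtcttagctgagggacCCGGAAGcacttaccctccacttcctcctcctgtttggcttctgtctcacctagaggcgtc
Ndufb7, chr8:83566638-83566757, strand +: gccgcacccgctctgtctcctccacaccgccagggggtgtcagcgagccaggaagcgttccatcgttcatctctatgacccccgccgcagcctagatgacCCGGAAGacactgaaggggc
The first base of the NRF1 motif lay 50 bases before the start in Atp5k and 60 in Ndufa11. With the mean of all other members, Atp5k had an r of 0.76 and Ndufa11 of 0.33. The same window is shown for the pair with the highest r, and holds none of these motifs. Whether the motifs go with the correlations was not tested.
Atp5j2, chr5:145191542-145191661, strand -: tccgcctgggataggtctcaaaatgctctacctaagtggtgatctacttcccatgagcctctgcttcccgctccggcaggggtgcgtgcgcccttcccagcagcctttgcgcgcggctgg
Cox7a2, chr9:79759854-79759973, strand -: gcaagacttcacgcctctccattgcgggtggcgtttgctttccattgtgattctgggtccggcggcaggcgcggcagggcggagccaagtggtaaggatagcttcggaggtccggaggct

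Most members were lower in mice with more macrophage transcripts. Each probe was fitted with limma on a score of 20 macrophage genes, with the set of mice as a covariate, and slopes are log2 units per SD of the score within sets. A probe was called at a Benjamini-Hochberg adjusted p under 0.05 over all 22894 probes. Of the 35 members, 27 were lower, against 27.8% of all probes, and 3 were higher, against 23.6%. Lower calls took in 15 of 17 genes of complex I, 6 of 9 of complex IV and 6 of 7 of the ATP synthase, while neither Cs nor Mdh2 was called. The median slope was -0.091 in complex I, -0.070 in complex IV and -0.096 in the ATP synthase, against -0.0014 over all probes, so the complexes lay close to each other.

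The steepest slopes below 0 were in complex I. Ndufa10, an accessory subunit, had a slope of -0.15 ± 0.012 (SE; adjusted p = 7.84e-27), which is -10.1% per SD. Ndufv1, the subunit that binds NADH, had -0.14 ± 0.012 (adjusted p = 4.83e-26), and Ndufs1 -0.12 ± 0.015. In complex IV the steepest was Cox7a2 at -0.13 ± 0.020 (adjusted p = 8.34e-09), and in the ATP synthase Atp5k at -0.12 ± 0.015 (adjusted p = 4.31e-12). The 3 members that were higher were Cox6a2 at 0.21 ± 0.029, Ndufa4l2, a paralogue of a complex IV subunit that low oxygen induces and that its symbol places with complex I, at 0.14 ± 0.011, and Atp5g1 at 0.034 ± 0.012. Within the Eif2s3y-low mice 24 members were lower (25.1% of probes), within the other Eif2s3y-high mice 27 (22.4%) and within the 48 mice 6 (9.85%). For comparisons between these sets, slopes are given per common SD of both. The slope of Cox4i2 differed in sign: it was 0.061 in Eif2s3y-low mice and -0.094 in the other Eif2s3y-high mice, with a difference of -0.15 ± 0.036 (limma interaction adjusted p = 0.000691). Slopes of 5 members differed between these sets, against 21.2% of all probes.

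With the adipocyte score the picture was turned over. That score rests on 10 fat cell genes and had an r of -0.59 with the macrophage score within sets, so these are not separate lines of evidence. Endothelium markers moved with it as well: 8 of 8 were higher with the adipocyte score, the endothelium score had an r of 0.70 with it within sets, and 7 of 8 were higher with Lep. Their part in the members' slopes was not tested. Of the members, 26 were higher, against 26.5% of all probes, and 4 were lower (Cox6a2, Ndufa4l2, Atp5g1 and Cox7a2l), against 23.5%. In complex I 14 of 17 were higher, in complex IV 5 of 9 and in the ATP synthase 6 of 7. Ndufa10 had a slope of 0.18 ± 0.011 (adjusted p = 6.22e-40), Ndufb6 of 0.15 ± 0.016, Ndufv1 of 0.14 ± 0.012 and the assembly factor Ndufaf1 of 0.13 ± 0.010. The lowest were Cox6a2 at -0.13 ± 0.031 and Ndufa4l2 at -0.12 ± 0.012. Slopes of 9 members differed between Eif2s3y-low mice and Eif2s3y-high mice free of epididymis transcripts, against 6.96% of probes. In each the slope was smaller in the latter, and 7 of the 9 are complex I genes.

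These relations to fat cells and macrophages were not equal when set in a single fit. The other 3 regressors were added as covariates, an alternative chosen after the data were seen. With the macrophage score 23 members were then lower (25.8% of probes) and 2 higher, but not all were the same genes. Ndufa10, the steepest in the fit without them, was not called (-0.026, limma adjusted p = 0.0592). Atp5g1 turned from higher to lower (-0.046, adjusted p = 0.00696), and Mdh2 was now lower (-0.047, adjusted p = 0.0231). In complex I 11 were lower, in complex IV 6 and in the ATP synthase 5. With the adipocyte score 8 were higher (32.3%) and 11 lower (30.9%). Over all members the median slope turned from 0.061 to -0.016, and 5 members called higher alone were called lower here (Ndufa1, Ndufa2, Ndufb11, Cox7a2 and Cox7c). Complex I gave 7 higher and 5 lower, among them Ndufa10 at 0.20 and Ndufa1 at -0.14, complex IV gave 0 higher and 5 lower, and the ATP synthase 0 higher and 1 lower, Atp5g1 at -0.13.

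**Figure D4:**
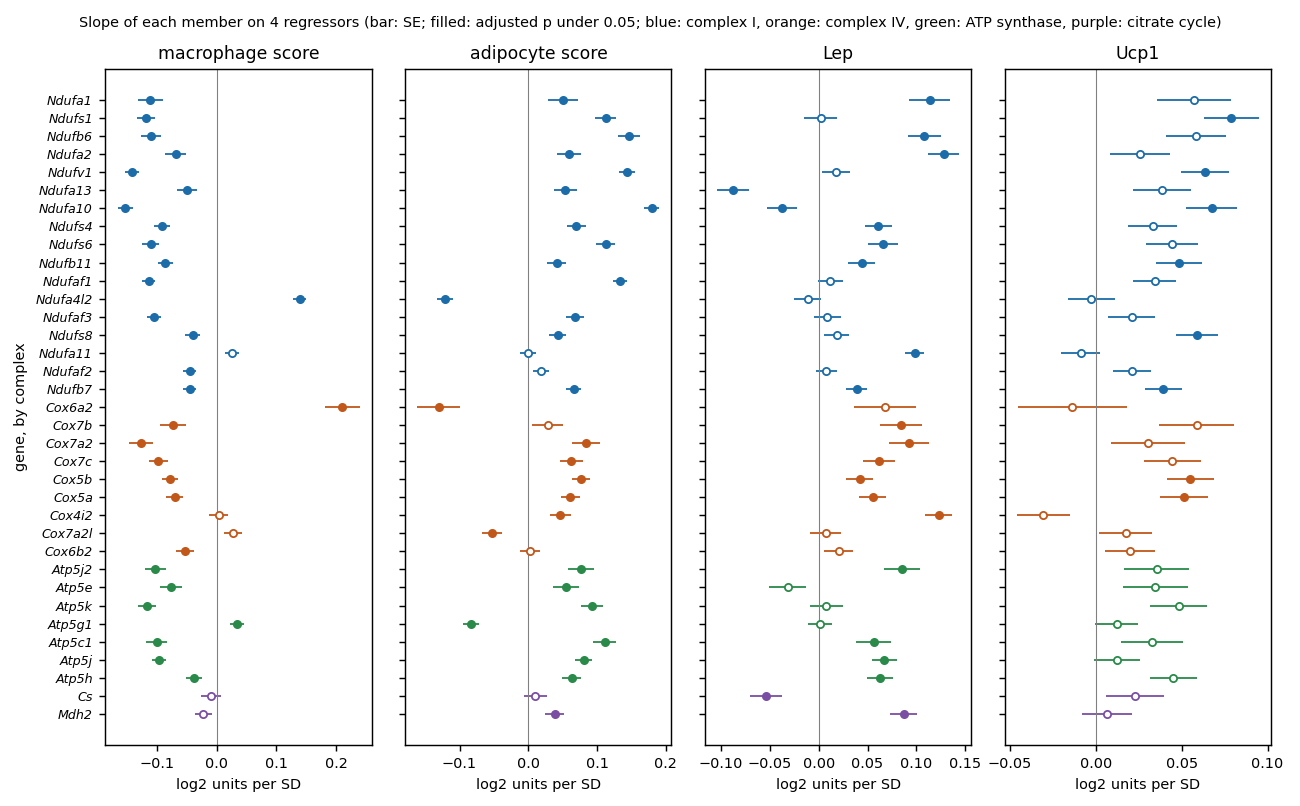
Slope of each of the 35 genes (vertical axis, ordered by complex) in log2 units per within-set SD (horizontal axis) of the macrophage score, the adipocyte score, Lep and Ucp1; bars are standard errors and filled points have an adjusted p under 0.05. Macrophage slopes lie mostly left of 0 and adipocyte slopes right of it, with Cox6a2, Ndufa4l2 and Atp5g1 on the opposite sides, and filled points for Ucp1 are complex I and complex IV genes.

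Lep, the leptin gene, whose transcript is known to follow fat cell size, went with more members up than down. Of the 35, 19 were higher, against 33.6% of all probes, and 3 were lower, against 30.1%. In complex I 8 were higher and 2 lower, in complex IV 6 higher and 0 lower (0 also at an unadjusted p under 0.05 in limma), and in the ATP synthase 4 higher and 0 lower (0 also unadjusted). The highest slopes were those of Ndufa2 at 0.13 ± 0.016 (adjusted p = 6.98e-13), Cox4i2 at 0.12 ± 0.014, Ndufa1 at 0.11 ± 0.021, Ndufb6 at 0.11 ± 0.017 and Ndufa11 at 0.098 ± 0.010. The lower members were Ndufa13 at -0.088 ± 0.016 (limma adjusted p = 5.87e-07), Cs at -0.054 ± 0.016 and Ndufa10 at -0.038 ± 0.015. A second probe of Ndufa13, measured on 64.7% of arrays, had 0.0074 ± 0.011 (limma adjusted p = 0.566). Its gaps were set to the probe mean, so this slope and SE are likely too small. The redox subunits of complex I were not called: Ndufs1 had a slope of 0.0020 ± 0.017 and Ndufv1 of 0.017 ± 0.014. For Ndufv1 this average hid a difference between sets: -0.041 in Eif2s3y-low mice and 0.076 in the other Eif2s3y-high mice, with a difference of 0.12 ± 0.033 (limma interaction adjusted p = 0.00484). Ndufa10 likewise had -0.11 and 0.021 on the same scale, with a difference of 0.13 ± 0.034 (adjusted p = 0.00262). Slopes of 5 members differed between these sets, against 23% of probes.

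Ucp1 went with fewer genes of any kind, and among the members mostly with complex I genes. Of the 35 members, 8 were higher with Ucp1, against 1.16% of all probes, and 0 were lower, against 0.454% (1 at an unadjusted p under 0.05 in limma, a gene of complex IV). The 8 were 6 genes of complex I and 2 of complex IV: Ndufs1 at 0.079 ± 0.016 (adjusted p = 0.000406), Ndufa10 at 0.067 ± 0.015, Ndufv1 at 0.064 ± 0.014, Ndufs8 at 0.059 ± 0.012, Cox5b at 0.055 ± 0.014, Cox5a at 0.051 ± 0.014, Ndufb11 at 0.049 ± 0.014 and Ndufb7 at 0.039 ± 0.011. By their most variable probes, none of the 7 ATP synthase genes was called (2 at an unadjusted p under 0.05), though all their slopes were above 0 and their median was 0.035, against 0.039 in complex I and 0.030 in complex IV. A difference between complexes is therefore not shown by these calls, and was not tested. The slope of Atp5h, a peripheral stalk subunit, was 0.045 ± 0.014 with an adjusted p of 0.0626, while its other probe was called at 0.057 ± 0.013 (adjusted p = 0.00314).

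For some members the slope on Ucp1 differed between sets of mice. The median Ucp1 ratio was 0.28 in Eif2s3y-low mice, -3.14 in the other Eif2s3y-high mice and -3.53 in the 48. Its SD within these sets was 1.31, 1.67 and 1.46. Signal over background was not analysed, so the part of low Ucp1 signal in the smaller slopes of the latter sets was not tested. Within the Eif2s3y-low mice 14 members were higher (2.11% of probes), and within each of the other sets 0 were (3 and 0 at an unadjusted p under 0.05). On the common SD the median slope of the members was 0.073, 0.016 and 0.0091 in the 3 sets, and the difference between the first pair passed the limma interaction test for 6 members, against 8.14% of probes, all with the smaller slope in the Eif2s3y-high mice. Ndufa10 had a slope of 0.16 in Eif2s3y-low mice and of 0.014 in the other Eif2s3y-high mice, a difference of -0.14 ± 0.032 (adjusted p = 0.00282). Ndufs6, an iron-sulfur arm subunit of complex I, had 0.12 and 0.00042, a difference of -0.12 ± 0.034 (adjusted p = 0.0138). With the other 3 regressors as covariates, 17 members were higher with Ucp1 (2.04% of probes): 12 of complex I, 4 of complex IV and 1 of the ATP synthase.

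**Figure D5:**
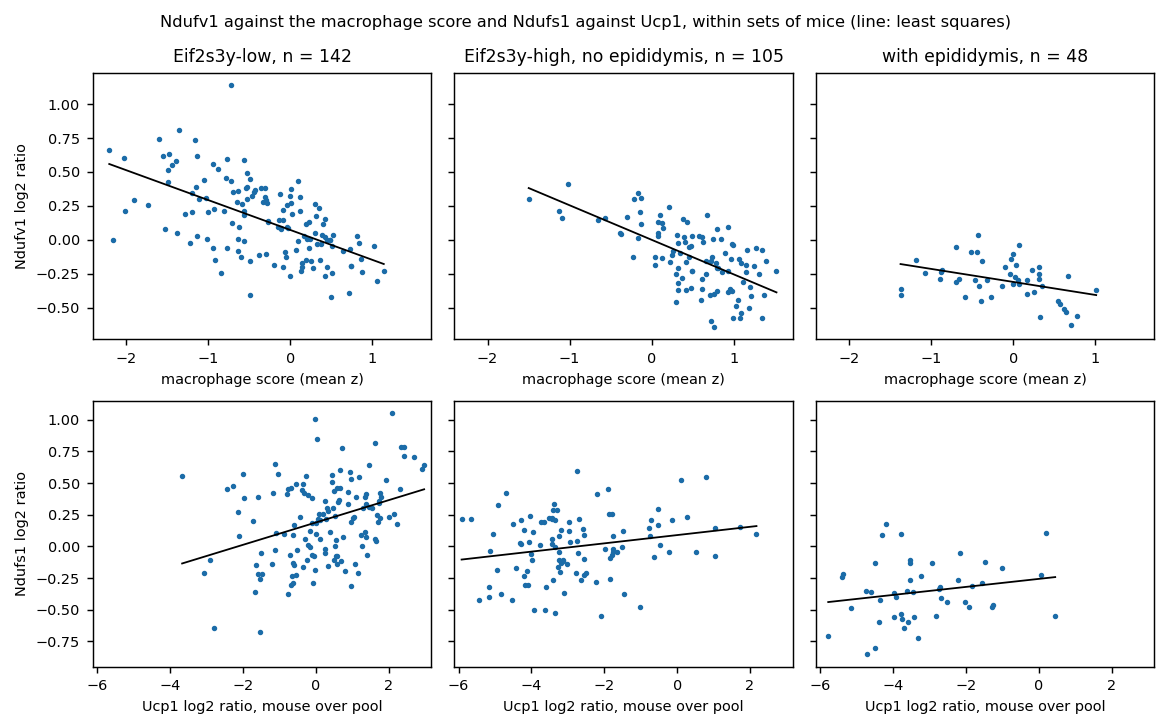
Log2 ratio of Ndufv1 against the macrophage score (upper row) and of Ndufs1 against the Ucp1 log2 ratio (lower row) within the 3 sets of mice; each point is a mouse and each line a least squares fit. Ndufv1 falls with the score in every panel, and Ucp1 is near 0 in most Eif2s3y-low mice and near -3 in most of the others.

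Ucp1 moved with the rest of the brown fat programme. Of 14 measured brown fat markers, which include Ucp1 itself, 13 were higher with it, among them Cidea at 0.82 ± 0.032 and the muscle and brown fat isoform genes Cox7a1 at 0.38 ± 0.026 and Cox8b at 0.33 ± 0.032. Those isoforms thus changed several times as much per SD as any member. The mean of the members had an r of 0.35 with the brown fat score, 0.22 with a skeletal muscle score and 0.24 with an endothelium score. The part of these cell types in the slopes was not tested.

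Cox6a2 and Ndufa4l2 went against most members on both cell scores. Cox6a2 had an r of 0.66 with a score of 10 skeletal muscle genes, against at most 0.18 for every other member. With that score as a covariate its slope on macrophages was 0.26 (adjusted p = 1.44e-31), against 0.21 without it. Ndufa4l2 had an r of 0.59 with the macrophage score and -0.45 with the endothelium score. Cox4i2, the isoform of a regulatory complex IV subunit induced by low oxygen, had its closest member in Ndufa11 and was higher with the adipocyte score (0.046 ± 0.015) and with Lep, but not called with the macrophage score (slope 0.0035 ± 0.016). Cox6b2 was lower with macrophages, at -0.053 ± 0.014. The common counterparts Cox6a1, Cox8a and Cox4i1 were measured on 45.4%, 68.8% and 56.6% of the arrays. Cox4i1 and Cox8a were fitted over all mice with their gaps set to the probe mean, so these slopes and SEs are likely too small. Cox4i1 had slopes of -0.058 ± 0.011 on macrophages, 0.055 ± 0.011 on adipocytes and 0.051 ± 0.011 on Lep (limma adjusted p = 1.51e-06, 5.19e-06 and 2.29e-05). Cox8a had -0.089 ± 0.016 on macrophages and 0.10 ± 0.016 on adipocytes. Atp5a1 and Atp5b, which encode the large subunits of the catalytic head, were measured on 26.8% and 8.14% of the arrays and were not fitted.

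The citrate cycle members differed from each other. Cs, citrate synthase, ran from -0.95 to 1.90 with a median of 0.13, and Mdh2, mitochondrial malate dehydrogenase, from -0.71 to 1.24 with a median of 0.08. Their mutual r was 0.01 over all mice, -0.44 within Eif2s3y-low mice and 0.41 within the other Eif2s3y-high mice, a difference that was not tested. Mdh2 had an r of 0.71 with Ndufa11 and of 0.68 with Cox4i2, and was higher with the adipocyte score (0.038 ± 0.014, adjusted p = 0.0189). Mdh2 was also higher with Lep (0.087 ± 0.014, adjusted p = 4.91e-09) and Cs lower (-0.054 ± 0.016, adjusted p = 0.00235). On the adipocyte score Cs had 0.063 in Eif2s3y-low mice and -0.057 in the other Eif2s3y-high mice, with a difference of -0.12 ± 0.037 (limma interaction adjusted p = 0.0306).

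Other mitochondrial pathways, from lists that hold none of the members, gave these counts. Of 7 further citrate cycle and pyruvate genes, all 7 were lower with the macrophage score, all 7 higher with the adipocyte score and 3 higher with Ucp1 (Idh3b, Idh3g and Pdha1, at 0.085, 0.090 and 0.097). Of 11 fatty acid oxidation genes, 9 were lower with the macrophage score and 9 higher with the adipocyte score, and 7 were higher with Ucp1. Cpt1a, the liver form of the enzyme that admits fatty acids to the mitochondrion, went the other way, at 0.14 ± 0.013 on macrophages and -0.089 ± 0.014 on adipocytes, while Hadh, a beta-oxidation dehydrogenase, had -0.16 ± 0.015 and 0.23 ± 0.012. Of 11 assembly genes of the chain, 6 were lower with macrophages, 9 higher with adipocytes and 0 called with Ucp1 (3 at an unadjusted p under 0.05). Of 15 import and quality control genes, 11 were lower with macrophages and 11 higher with adipocytes. Of 9 electron carrier and inner membrane genes, 5 were lower with macrophages. Atpif1, the inhibitor of the ATP synthase, was higher there at 0.16, and was lower with adipocytes at -0.23. Of 17 regulators, 8 were lower and 4 higher with macrophages. With Lep, where 19 members were higher and 3 lower, 12 regulators were lower, against 30.1% of all probes. Among these was Ppargc1a at -0.14 ± 0.027. The 3 higher regulators, against 33.6% of all probes, were Mef2d at 0.057, Nrf1 at 0.046 and Hcfc1 at 0.031. With Ucp1 3 were higher: Ppara at 0.30, Ppargc1a at 0.24 and Ppargc1b at 0.15; Ppara and Ppargc1a are also among the brown fat markers.

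Genes with several probes gave a check on these values. The 4 probes of Atp5c1 had mutual r of 0.68 to 0.98, the pair of Atp5h 0.95 and the pair of Ndufb11 0.99. The pair of Ndufb6, singled out after its values were seen, reached 0.25: its less variable probe had slopes of -0.072 on macrophages and 0.087 on adipocytes, in the direction of the other, but -0.021 ± 0.016 on Lep, where the other had 0.11 ± 0.017. The Lep result of Ndufb6 therefore holds for 1 of its 2 probes. That of Atp5c1 holds for 1 of 4: its most variable probe had 0.056 ± 0.018 (adjusted p = 0.00345), and the others had adjusted p of 0.929, 0.165 and 0.0762. The r of Ndufb6 with other members and its differences between sets were taken from its more variable probe alone. On Ucp1 that probe had 0.058 ± 0.018 and the other -0.0040 ± 0.016, neither called.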

How the data were processed

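Per the labels, each array set the Cy3-labelled RNA of 1 mouse against a Cy5-labelled pool. The deposited values were read as log10 ratios of mouse over pool (range -2 to 2, with 527 values at a limit). Their background correction, normalization, scale, centring and direction are not given in the sources used here. Direction was inferred from Eif2s3y, with deposited medians of 0.38 in its high and -1.64 in its low mice: with the sign turned, the 142 low mice would far exceed the pool that holds their RNA. The base is not settled: the mean linear ratio of Eif2s3y to a pool of equal portions came to 1.17 under log10, to 0.813 under log2 and to 0.826 under natural log, where such a pool gives about 1, and the slope of probe means on probe variances was -1.63, where it gives -1.15, -0.35 and -0.50. Of 43365 array pairs 944 had r under -0.3, each 1 with and 1 without epididymis transcripts; the direction was kept for all arrays. Array means lay between -0.00991 and 0.0250 and array medians between -0.17 and 0.13 log2 units. A turned sign would reverse levels and swap the sets by Eif2s3y, but reverse no slope. Values were multiplied by 3.32. Of 23387 probes, 22894 measured on 90% of arrays were kept, and 7762 gaps took the probe mean. Probes were named by the platform annotation and RefSeq (12652 matched; 13644 had 1 symbol, 48 several, 9695 none). A gene is its most variable probe. The number of the sample title was used where 1 source name differed; sample texts state 330 mice, the series 295.

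Models were fitted in R 4.3.3 (limma 3.58.1), p-values adjusted by Benjamini-Hochberg, and the rest was done in Python 3.11.15. In simulated data for the macrophage fit, with independent normal values and few changed probes, 0.0132% of 22694 unchanged probes were called. Probes of the real arrays vary together, so this does not give the rate of false calls in them. Regressors are scores (mean z of marker genes) or log2 ratios. Named genes were, per complex, the 3 of largest SD and the 3 highest and 1 lowest in r with the rest, the 5 steepest calls each way, isoform groups, and the 10 most alike outside genes; others named are examples of lists or were chosen after their values were seen. The members and lists were chosen with earlier results of these data known. Replicate mice are separate animals, and the number of arrays limits precision.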

Additional observations from a re-analysis of the deposited data

Results flagged for a closer look

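Chosen for a closer look were the 25 slopes, among 140 tested, that differed between Eif2s3y-low mice and Eif2s3y-high mice free of epididymis transcripts at a limma interaction adjusted p under 0.05. Differences are high minus low, in log2 units per SD common to both sets, as are the slopes given, and the shares of all probes that passed are in the report.

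On the adipocyte score all differences were below 0, and in each gene but Cs the slope was above 0 in both sets. They were -0.097 for Atp5h, -0.12 for Cs, -0.082 for Ndufa10, -0.067 for Ndufaf1, -0.11 for Ndufb6, -0.094 for Ndufb7, -0.13 for Ndufs1, -0.094 for Ndufs8 and -0.078 for Ndufv1. Cs had 0.063 in the Eif2s3y-low mice and -0.057 in the others.

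On Ucp1 all were below 0 as well: -0.14 for Ndufa10, -0.11 for Ndufb6, -0.077 for Ndufb7, -0.12 for Ndufs6, -0.097 for Ndufv1 and -0.062 for Cox6b2.

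On Lep the difference was 0.13 for Ndufa10, 0.11 for Ndufa13, 0.093 for Ndufaf1 and 0.12 for Ndufv1, and -0.097 for Ndufa4l2. Ndufa4l2 had a slope of 0.039 in Eif2s3y-low mice and of -0.059 in the others.

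On the macrophage score it was -0.089 for Mdh2, 0.11 for Ndufa13, -0.12 for Ndufa2, 0.086 for Ndufa4l2 and -0.15 for Cox4i2. Ndufa13 had a slope of -0.11 in Eif2s3y-low mice and of 0.00065 in the others.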

How the results depend on the processing

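Of the alternative values for the counts of calls, the correlations and the spread, 131 stayed close to the value reported. Counts had to lie within 1.5 times, and a mean r within the SD over its pairs. This took in complex I at 0.19 within the 48 mice and complex IV at 0.56 over its common members. No mean r changed sign, and 17 values moved further. The exceptions were as follows, and their cause was not tested where none is named. Within the 48 mice with epididymis transcripts, a smaller set, 6 members were lower with the macrophage score, 4 higher and 0 lower with the adipocyte score (10 and 0 at an unadjusted p under 0.05), 7 higher and 0 lower with Lep (13 and 0 unadjusted), and 0 higher with Ucp1 (0 unadjusted). Within the Eif2s3y-high mice without them, 16 were higher with the adipocyte score, 1 lower with Lep and 0 higher with Ucp1 (3 unadjusted); within the Eif2s3y-low mice 14 were higher with Ucp1. Without the set covariate, 30 were higher and 2 lower with Ucp1, whose own level differs between sets. With the other 3 regressors as covariates, chosen after the data were seen, 8 were higher and 11 lower with the adipocyte score. Over all probes the shares were 32.3% and 30.9%, and 5 members turned from called higher to called lower. In that fit 17 were higher with Ucp1, against 2.04% of probes. Leaving out mice 12 and 37, also chosen after seeing the data, gave 27 lower with macrophages, 27 higher with adipocytes, 21 higher with Lep and 9 higher with Ucp1. The median SD of the members was 0.13 if the deposited values are natural logs and 0.089 if they are log2. No paired analysis was possible because the labels give 1 group of mice. Counting Ndufa4 in complex IV gave no value, since no kept probe carries that symbol. Signal over background was not analysed here, so low signal cannot be told from low spread.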
